A study of Arabidopsis thaliana with 30 samples.

Results

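The comparison followed the Arabidopsis thaliana line that overexpressed Ah2880 (line 12, here Ah2880 OE) from prolonged heat into recovery. Its members were fixed by the labels: the 2 Ah2880 OE libraries taken after 11 h at 45 °C (HS-11) and the 2 taken after 22 h at 45 °C followed by 1 day at 22 °C (R-1), which makes 4 of the 30 libraries of the series, read over all genes. Of 37513 entries in the count table, 28253 held counts in at least 1 library and 19761 had enough counts to be tested. Each library was made from leaves of a pool of 10 plants of ecotype Columbia, 4 weeks old according to the labels (the study's methods give a younger age for the heat experiments), and each group held 2 replicates. Ah2880 OE plants carried a gene from grain amaranth, Amaranthus hypochondriacus, that codes for a small protein of unknown function. It was driven by the constitutive 35S promoter of cauliflower mosaic virus in the vector pB7WG2D, and line 12 was 1 homozygous line in the T4 generation, so the line and its insertion cannot be told apart from the transgene. The transgene's own transcript was not analysed here. The wild type (WT) and a line overexpressing AhHAB4-PAI-1, another amaranth gene that codes for an RNA-binding protein, were treated in the same way and are used only to show where Ah2880 OE plants differed.

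No unheated library was among the 30 samples, so a level at R-1 could not be set against a resting level. The HS-11 plants had 11 h of heat under constant light. The R-1 plants had 22 h of heat and then a day with 16 h of light and 8 h of darkness. Recovery, the length of the heat, the light regime, the time of day and the age at harvest cannot be told apart in this comparison.

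In heated plant cells, heat shock transcription factors switch on chaperones, proteins that hold or refold damaged proteins, and in the endoplasmic reticulum a related response raises chaperones of the secretory pathway. When the stress ends these transcripts decay, and growth, photosynthesis and the circadian clock can resume. A leaf that cannot pay for its maintenance instead expresses the genes of sugar starvation and senescence, the programme by which leaf protein and chlorophyll are dismantled and nitrogen is exported.

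The 4 libraries held 2125493 and 1467622 counts at HS-11 and 686550 and 1044829 counts at R-1, within a range of 46825 to 5739590 counts over the 30 libraries. The lowest totals of the series, 46825 and 50677 counts, belonged to WT after 3 days of recovery (R-3), which entered the joint fit but not the comparison. Replicates were close, with a correlation across genes of log2 CPM (counts per 1000000 counts of a library, its total corrected for composition) of 0.968 at HS-11 and 0.945 at R-1, and the chi-square per gene between replicates was 2.19 and 1.12. The 100 genes with most counts took 26% and 26.5% of the counts at HS-11 and 17.3% and 16.9% at R-1. Chloroplast-encoded transcripts took 0.488% and 1.03% of the counts at HS-11 and 0.295% and 0.308% at R-1, and mitochondrial ones 1.02% and 1.08% against 0.215% and 0.229%.

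The R-1 libraries of Ah2880 OE lay close to the R-3 libraries of the same line. edgeR's quasi-likelihood test called 0 genes between them at an adjusted p under 0.01, with 1073 genes at an unadjusted p under 0.05; DESeq2 also called 0, with 794 unadjusted, and edgeR without a filter on low counts called 8. The chi-square per gene between an R-1 and an R-3 library of Ah2880 OE was 1.31 to 1.44, beside 1.34 between the R-3 replicates. The same test called 2344 genes between R-1 and R-3 in WT and 3473 in AhHAB4-PAI-1 OE, where the chi-square per gene was 10.7 to 11.8 and 11.8 to 23.2. The R-1 values below are therefore given as those of the libraries labelled R-1.

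Between HS-11 and R-1, 10193 of the 19761 genes tested (51.6%) changed in Ah2880 OE plants at an adjusted p under 0.01 in edgeR's quasi-likelihood test. Of these, 4437 genes (22.5%) had higher and 5756 (29.1%) lower transcript levels at R-1, and 3962 and 4916 of them changed more than 2-fold. The CPM of both R-1 libraries lay above both HS-11 libraries for 7080 genes (35.8%) and below them for 8503 (43%). The balance of the directions depended on the scaling: the counts of higher and lower genes were 5067 and 5000 with upper quartile factors and 6518 and 3573 with plain library totals, for which the fold changes of all tested genes had a median of 0.03 and 0.42 on the log2 scale instead of -0.14. They were 4754 and 4475 when the 4 libraries were fitted alone, and 3966 and 3810 after all libraries were thinned to equal depth. Changes are to be read against that shift. Because bulk leaves were sequenced, fewer cells of a type and less RNA per cell cannot be told apart.

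Much of the change was shared with WT, which was measured in its own libraries. Of the 19761 genes 55.5% were called in WT and 48.9% in AhHAB4-PAI-1 OE. WT had 5964 genes higher (30.2%) and 5000 lower (25.3%) at R-1. Of the genes higher in Ah2880 OE, 3116 were also higher in WT, which is 70.2% of the Ah2880 OE genes and 52.2% of the WT genes, and 102 were lower in WT. Of the genes lower in Ah2880 OE, 3872 were also lower in WT, which is 67.3% and 77.4% of the respective lists, and 286 were higher in WT. AhHAB4-PAI-1 OE had 4925 genes higher (24.9%) and 4734 lower (24%), and shared 2097 of the higher and 2329 of the lower genes with Ah2880 OE. The genes called in opposite directions in these 2 lines numbered 471 and 899.

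A direct test of the difference in change (an interaction contrast in the same fit) called 3627 genes (18.4%) between Ah2880 OE and WT, 1163 with a more positive (5.89%) and 2464 with a more negative change (12.5%) in Ah2880 OE. That split was 742 and 3756 with library totals and 1609 and 1867 when the WT R-3 libraries were left out of the fit. The direction of the split turned when the libraries compared were fitted alone (1841 more positive and 1748 more negative) and after thinning, which left 1820 genes (932 and 888). Without the second R-1 replicate of Ah2880 OE the count was 2370. Against AhHAB4-PAI-1 OE, 7911 genes differed (40%), 3297 more positive (16.7%) and 4614 more negative (23.3%) in Ah2880 OE, a split that became 5010 and 2819 with library totals and 4040 and 3779 with upper quartile factors. After thinning 4899 genes differed, 2440 and 2459.

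To describe which functions moved, 770 genes in 35 lists were followed, of which 746 were tested. Among them 127 were higher and 481 lower at R-1, beside 22.5% and 29.1% of all genes. Of the 481, 182 were cytosolic ribosomal protein genes. The lists ranged from a median log2 fold change of -5.05 for small heat shock proteins to 3.81 for leaf senescence genes, the latter with genes at 0 counts in both libraries of a stage set at the bound that a floor of 3 counts per library allows.

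**Figure D1:**
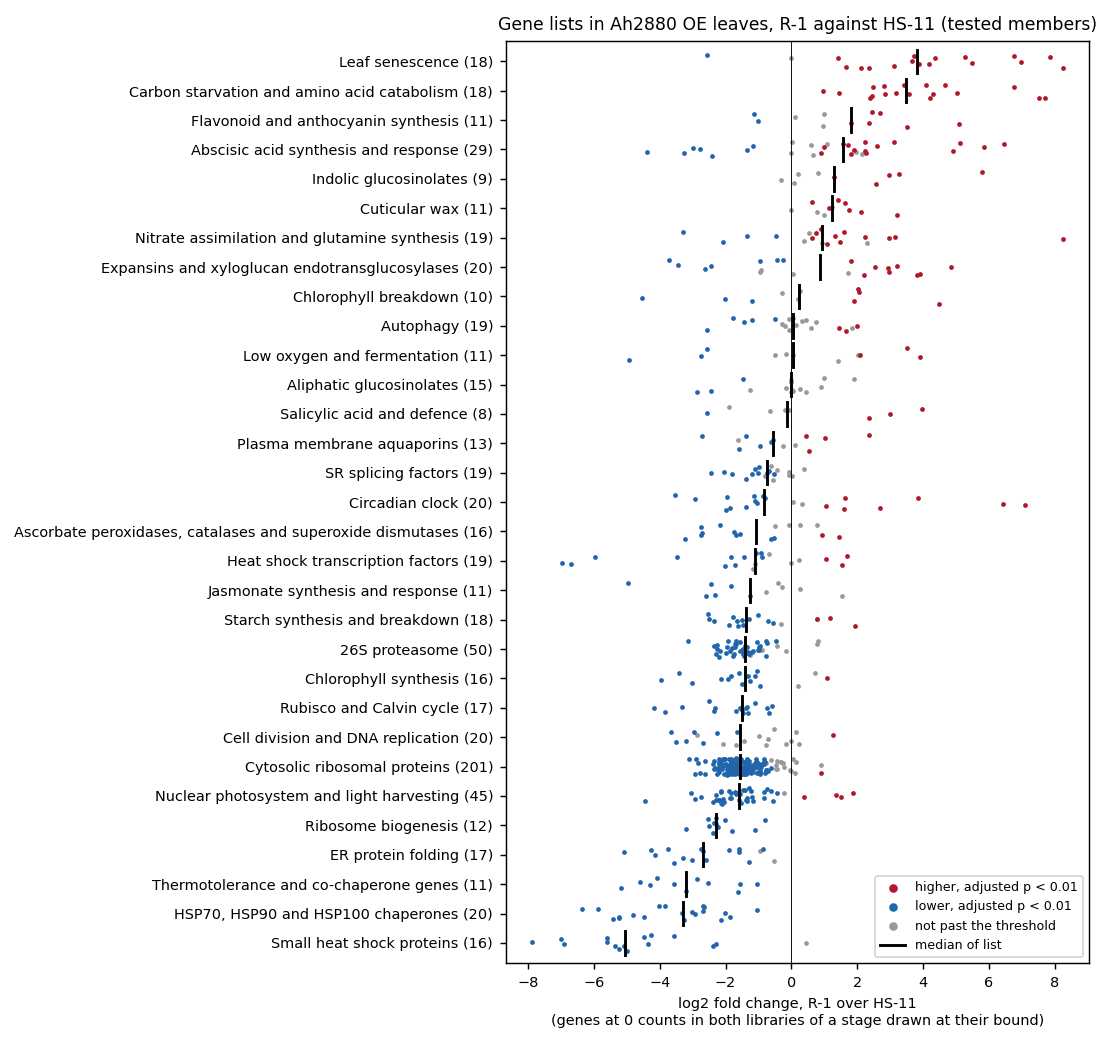
Log2 fold change at R-1 over HS-11 in Ah2880 OE (x axis) of each tested member of the 31 gene lists that are not cell type markers (y axis, number tested in parentheses). Red points were higher and blue points lower at an adjusted p under 0.01, grey points did not pass it, and the black tick is the list's median, from -5.05 for small heat shock proteins to 3.81 for leaf senescence.

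Transcripts of the heat shock response were lower at R-1. Of 19 heat shock transcription factor genes tested, 11 fell, 3 rose and 5 did not pass the test, with a median log2 fold change of -1.11 with genes at 0 counts set at their bound. All 20 members of the HSP70, HSP90 and HSP100 families fell (median -3.30), as did all 11 thermotolerance and co-chaperone genes (median -3.21) and 15 of 16 small heat shock protein genes (median -5.05), where 29.1% of all genes tested fell. These counts were the same with upper quartile factors and library totals, except for the transcription factors, of which 9 fell with library totals.

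HSFA2, the factor that sustains the heat response and is itself induced by heat, had 1449 and 1217 CPM at HS-11 and 12.4 and 9.51 CPM at R-1. Every R-1 value lay far below both HS-11 values, and the log2 fold change was -6.96 ± 0.21 (SE) with an adjusted p = 8.52e-34. HSFA3, which acts downstream of the drought and heat regulator DREB2A, had 345 and 301 CPM at HS-11 and 3.38 and 2.93 CPM at R-1. Its log2 fold change, -6.68 ± 0.26 (SE), was more negative than in WT (difference in log2 fold change -1.88 ± 0.44 SE, adjusted p = 0.000762). DREB2A itself had a log2 fold change of -2.87 ± 0.15 (SE). HSFA7A fell less in Ah2880 OE than in WT: it had 36.2 and 37.4 CPM at HS-11 and 9.01 and 12.4 CPM at R-1, and its change exceeded that in WT by 4.63 ± 0.51 (SE, adjusted p = 2.58e-10). HSFB1, a repressor class factor, had 435 and 415 CPM at HS-11 and 224 and 221 CPM at R-1 and also fell less than in WT, the difference being 0.90 ± 0.17 (SE, adjusted p = 4.55e-05). The 3 heat shock factor genes that rose were HSFA4A, HSFA4C and HSFA6A, but none was called higher without the first HS-11 replicate and 1 after thinning. HSFA4A, named HSF A4A in the annotation, had 3.84 and 17.9 CPM at HS-11 and 33.8 and 29.996 CPM at R-1, with its HS-11 replicates unequal, and HSFA6A was at 0 counts in both HS-11 libraries against 4 and 5 counts at R-1.

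HSP101, the disaggregase that dissolves protein aggregates and is needed for acquired thermotolerance, had 4995 and 4688 CPM at HS-11 and 50.7 and 64.4 CPM at R-1. The groups did not overlap, and the log2 fold change was -6.37 ± 0.17 (SE) (adjusted p = 1.68e-36), with -6.61 in WT. HSP70 (AT3G12580), a cytosolic heat-inducible member of its family, had 14384 and 14039.5 CPM at HS-11 and 644 and 628 CPM at R-1. It was the annotated gene with the most counts at HS-11, 1.24% and 1.23% of each library, and fell by 4.48 ± 0.13 (SE) on the log2 scale. Its fall was less steep than in WT, where the HS-11 level was 31475 and 30200.0 CPM, by 0.95 ± 0.16 (SE, adjusted p = 4.17e-06). HSP90.1, the heat-inducible cytosolic HSP90, had 7880.3 and 7221 CPM at HS-11 and 189 and 207 CPM at R-1 and a log2 fold change of -5.25 ± 0.14 (SE). Chloroplast chaperones had smaller changes, with log2 fold changes of -2.14 ± 0.14 (SE) for HSP90.5 and -1.87 ± 0.12 (SE) for cpHSC70-1. MBF1C, a heat-induced transcriptional coactivator required for thermotolerance, had 908 and 534 CPM at HS-11 and 41.7 and 43.2 CPM at R-1.

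Small heat shock proteins bind unfolding proteins without ATP. HSP17.4 had 5357 and 4133 CPM at HS-11 and 239 and 249 CPM at R-1. Its log2 fold change, -4.28 ± 0.17 (SE), was more negative than in WT (difference in log2 fold change -1.29 ± 0.21 SE, adjusted p = 3.57e-06). HSP21, the small heat shock protein of the chloroplast, had 1875 and 1833 CPM at HS-11 and 55.2 and 38.0 CPM at R-1, and its change was the most negative relative to WT within the list (difference in log2 fold change -3.11 ± 0.20 SE, adjusted p = 1.25e-18). AT1G59860, an HSP20-like chaperone, had one of the largest measured falls, from 2298 and 1869 CPM to 7.88 and 9.51 CPM. AT4G21870 was the exception of the list, with 1.1 and 3.11 CPM at HS-11 and 1.13 and 3.66 CPM at R-1 and no call.

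In AhHAB4-PAI-1 OE the HS-11 libraries held 2018 and 1930.0 CPM of HSP70 and 741 and 709 CPM of HSP101, below both Ah2880 OE libraries of that stage. The change from HS-11 to R-1 was more negative in Ah2880 OE than in AhHAB4-PAI-1 OE for most chaperone and thermotolerance genes. These were 15 of the 16 small heat shock protein genes, all 20 HSP70, HSP90 and HSP100 genes and 10 of the 11 thermotolerance genes. Of all genes tested 23.3% had such a change. In AhHAB4-PAI-1 OE itself 2, 2 and 1 members of these lists rose. Against WT the change was more negative in 8, 3 and 1 members of these lists and more positive in 1, 4 and 2, beside 12.5% and 5.89% of all genes.

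**Figure D2:**
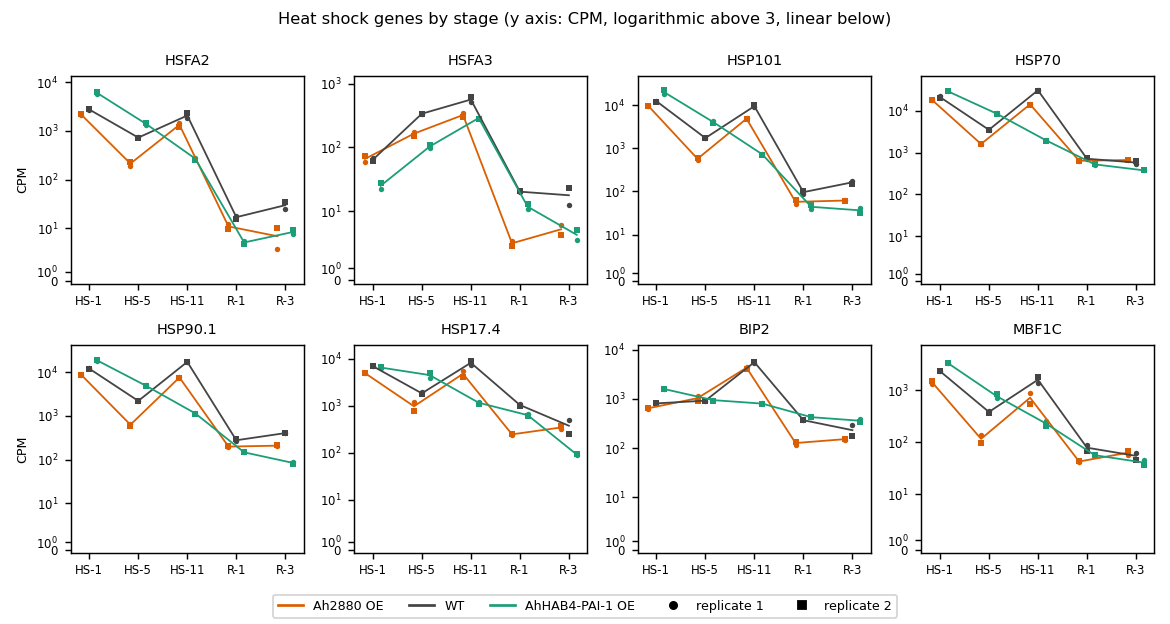
CPM (y axis, logarithmic above 3 and linear below) of 8 heat response genes at each stage (x axis: HS-1, HS-5 and HS-11 are heat stages, HS-5 being 5.5 h in the labels, and R-1 and R-3 are days of recovery) in Ah2880 OE, WT and AhHAB4-PAI-1 OE; circles and squares are replicates 1 and 2 and lines join their means. In Ah2880 OE, HSFA2 goes from 1449 and 1217 CPM at HS-11 to 12.4 and 9.51 CPM at R-1.

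Heat shock factors bind inverted repeats of the letters GAA. The stretches just upstream of the annotated starts of 3 of these genes are shown because they hold 3 or 4 such matches each, printed in capitals (GAANNTTC or TTCNNGAA, found on both strands, overlapping matches run together). They are read 5′ to 3′ on the gene's own strand from the RefSeq assembly TAIR10.1, at chr2:11135524-11135623, plus strand for HSFA2, chr3:19264941-19265140, plus strand for HSFA7A, and chr3:16984868-16984967, minus strand for HSP17.4.
HSFA2: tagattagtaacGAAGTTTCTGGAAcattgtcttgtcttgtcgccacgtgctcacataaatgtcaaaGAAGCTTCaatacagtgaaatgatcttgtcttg
HSFA7A: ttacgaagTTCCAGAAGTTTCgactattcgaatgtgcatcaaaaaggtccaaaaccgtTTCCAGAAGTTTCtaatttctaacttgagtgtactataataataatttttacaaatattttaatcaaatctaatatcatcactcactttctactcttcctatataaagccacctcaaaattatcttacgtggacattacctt
HSP17.4: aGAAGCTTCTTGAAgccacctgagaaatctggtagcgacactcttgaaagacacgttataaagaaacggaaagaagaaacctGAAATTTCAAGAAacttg
In the 300-base windows from 250 bases before to 50 after the start, the motif was present in 19% of the 19296 nuclear genes tested. It was present in 9 of 16 small heat shock protein promoters (56.2%), 8 of 11 thermotolerance promoters (72.7%), 7 of 19 heat shock factor promoters (36.8%) and 6 of 20 promoters of the large chaperones (30%). Among all genes called higher or lower it was present in 19.7% and 19.8%. A match is a description of these letters, not a measured binding site.

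Folding factors of the endoplasmic reticulum fell as well: 15 of 17 tested members were lower, none was higher, and the median was -2.69, beside 29.1% of all genes lower. BIP2, the abundant HSP70 of the endoplasmic reticulum, had 4514 and 4143 CPM at HS-11 and 117 and 136 CPM at R-1. The values at R-1 lay below every HS-11 value, with a log2 fold change of -5.08 ± 0.14 (SE) against -3.92 in WT, and the difference from WT was -1.16 ± 0.17 (SE, adjusted p = 6.17e-07). CNX1, a calnexin that retains glycoproteins until they fold, and HSP90.7, the HSP90 of this compartment, had log2 fold changes of -4.26 ± 0.13 (SE) and -3.56 ± 0.13 (SE). BIP3, the stress-specific form, was low throughout, with 5.48 and 7.01 CPM at HS-11 and 3.38 and 2.93 CPM at R-1, and was not called, whereas in AhHAB4-PAI-1 OE it rose by a log2 fold change of 4.92. All 17 members had a more negative change than in AhHAB4-PAI-1 OE, and 9 a more negative change than in WT, beside 23.3% and 12.5% of all genes.

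SR proteins are splicing factors whose own transcripts respond to heat. Of 19 tested, 11 fell, none rose and 8 did not pass the test, with a median of -0.74, where 29.1% of all genes fell. SR45A, which is induced by light and heat, had 529 and 480.4 CPM at HS-11 and 89.0 and 95.8 CPM at R-1 and fell by 2.44 ± 0.13 (SE) on the log2 scale, less than in WT (difference in log2 fold change 0.75 ± 0.18 SE, adjusted p = 0.00105). The count depended on the scaling and on depth, with 8 lower under upper quartile factors, 5 lower and 1 higher under library totals, and 6 lower and 1 higher after thinning. Without the first HS-11 replicate 7 members were called.

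The clock genes changed in both directions: 7 of 20 rose, 11 fell and 2 did not pass the test, beside 22.5% of all genes higher and 29.1% lower. The plant clock is a loop in which the morning genes CCA1 and LHY repress evening genes, which in turn repress the morning genes, so a level depends on the hour of harvest. The morning genes CCA1 and LHY rose. CCA1 had 18.6 and 23.4 CPM at HS-11 and 137 and 132 CPM at R-1, with a log2 fold change of 2.70 ± 0.19 (SE) (adjusted p = 2.57e-18), and LHY had 1.64 and 6.23 CPM at HS-11 and 48.4 and 54.9 CPM at R-1. The activators RVE8 and LNK2, which act together on evening genes, rose most: LNK2 had 7.12 and 0.779 CPM at HS-11 and 368 and 412 CPM at R-1, and RVE8 was at 0 and 1 counts at HS-11 and at 46 and 69 counts at R-1, a ratio of R-1 to HS-11 of 159 (95% counting interval 27.9 to 6318). Of the day-phased repressors, PRR9 and PRR7 had log2 fold changes of 1.07 ± 0.25 (SE) and 1.64 ± 0.19 (SE), while PRR5 fell by 1.39 ± 0.18 (SE) on that scale.

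The evening genes fell. LUX, a DNA-binding subunit of the evening complex, had 129 and 119 CPM at HS-11 and 12.4 and 9.51 CPM at R-1, and its log2 fold change of -3.54 ± 0.23 (SE) was more negative than in WT (difference in log2 fold change -1.82 ± 0.30 SE, adjusted p = 4.55e-06). ELF4, another subunit, had 25.8 and 34.3 CPM at HS-11 and 9.01 and 6.58 CPM at R-1. ELF4 fell in Ah2880 OE (log2 fold change -1.96 ± 0.34 (SE)) and rose in WT (1.66), a difference of -3.61 ± 0.41 (SE, adjusted p = 4.03e-10). ELF3, the scaffold of the complex, fell by 1.86 ± 0.19 (SE) on the log2 scale. TOC1, an evening repressor of CCA1, had a log2 fold change of -1.12 ± 0.18 (SE) in Ah2880 OE and of 0.45 in WT, a difference of -1.56 ± 0.24 (SE, adjusted p = 6.09e-07). FKF1, a blue light receptor of the photoperiod pathway, had 67.4 and 61.5 CPM at HS-11 and 9.01 and 8.05 CPM at R-1. PRR9, PRR7, CCA1, RVE8 and LNK2 had a more positive change than in WT, and TOC1, LUX, ELF3, ELF4, FKF1 and CHE a more negative one, beside 5.89% and 12.5% of all genes. The count of clock genes moved to 9 higher and 7 lower with library totals.

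**Figure D3:**
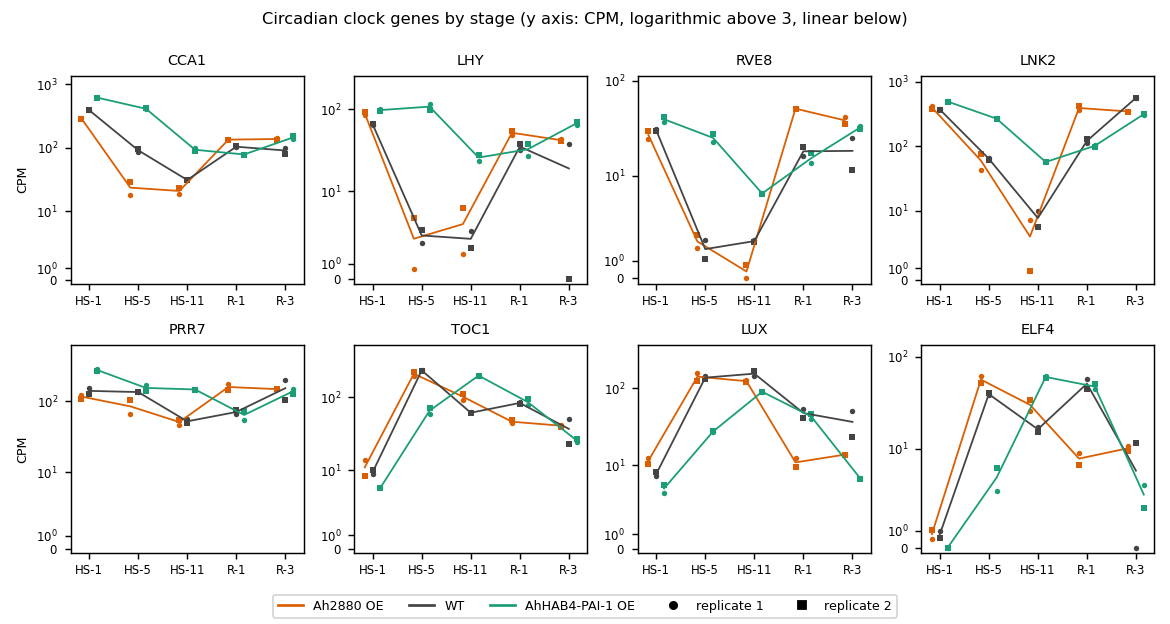
CPM (y axis, logarithmic above 3 and linear below) of 8 circadian clock genes at each stage of heat (HS-1, HS-5, HS-11) and recovery (R-1, R-3) in the 3 lines; circles and squares are replicates 1 and 2 and lines join their means. In Ah2880 OE the morning gene CCA1 is at 137 and 132 CPM at R-1 and the evening gene LUX at 12.4 and 9.51 CPM.

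Evening genes share the evening element, AAATATCT. The stretch just upstream of LUX is shown because it holds 2 copies, in capitals (found on both strands), at chr3:17182962-17183041, plus strand of TAIR10.1.
LUX: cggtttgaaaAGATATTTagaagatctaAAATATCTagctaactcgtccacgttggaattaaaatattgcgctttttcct
The element was in 7 of 20 clock gene promoters (35%) and in 5.93% of all nuclear genes tested, and the G-box CACGTG was in 10 of 20 (50%) and 8.88%. The evening element was in 5.68% of all genes called higher and 7.33% of those called lower.

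Genes of carbon starvation and amino acid breakdown rose without exception. All 18 members tested were higher at R-1, beside 22.5% of all genes, with a median log2 fold change of 3.49. In WT 10 rose and 1 fell (median 1.48), and 11 of the 18 had a more positive change in Ah2880 OE than in WT, beside 5.89% of all genes. In AhHAB4-PAI-1 OE 11 rose and none fell (median 1.14).

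ASN1 (also DIN6), the dark-induced asparagine synthetase that stores nitrogen when sugars run low, had 8.22 and 3.89 CPM at HS-11 and 742 and 667 CPM at R-1. The groups were wholly separate, the log2 fold change was 6.77 ± 0.19 (SE) (adjusted p = 9.35e-35), and in WT it was 0.68, a difference of 6.08 ± 0.31 (SE, adjusted p = 3.08e-22). DIN10, a raffinose synthase family gene used as a sugar starvation marker, had 49.3 and 42.0 CPM at HS-11 and 822 and 871 CPM at R-1 against 117 and 118 CPM and 136 and 135 CPM at the same stages in WT, and the difference in change was 4.00 ± 0.20 (SE, adjusted p = 1.07e-22). BGLU30 (also DIN2), a glucosidase induced by darkness, had no counts at HS-11 and 437 and 397 CPM at R-1, at least 209-fold higher. LKR, the first enzyme of lysine breakdown, had 2.19 and 3.11 CPM at HS-11 and 510.2 and 454 CPM at R-1 and rose by 7.52 ± 0.25 (SE). BCAT2, which starts the breakdown of branched-chain amino acids, had 4.93 and 6.23 CPM at HS-11 and 116 and 105 CPM at R-1, and the next steps, IVD, MCCA and MCCB, rose by log2 fold changes of 3.57, 3.19 and 2.84. ERD5, a proline dehydrogenase, had 9.86 and 10.1 CPM at HS-11 and 152 and 185 CPM at R-1 and rose by 4.09 ± 0.21 (SE), with 0.54 in WT. GDH2, a glutamate dehydrogenase that releases ammonium from glutamate, had 58.6 and 65.4 CPM at HS-11 and 359 and 322 CPM at R-1.

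Leaf senescence genes rose with them. Of 18 tested, 16 were higher, 1 was lower and 1 did not pass the test, beside 22.5% of all genes higher and 29.1% lower. The median was 3.81 with genes at 0 counts set at their bound. In WT 12 rose and 1 fell, beside 30.2% and 25.3% of all genes. SAG13, an early senescence marker, was at 0 counts in both HS-11 libraries and at 479.8 and 440.4 CPM at R-1, at least 231-fold higher. In WT it was at 0 at HS-11 as well and at 282 and 250.4 CPM at R-1. SAG14, a blue copper protein, had 9.86 and 7.01 CPM at HS-11 and 1139 and 1067 CPM at R-1, and its log2 fold change of 6.98 ± 0.21 (SE) exceeded that in WT by 3.82 ± 0.31 (SE, adjusted p = 2.38e-14). ORE1, listed as NAC6, is a NAC factor that drives age-dependent senescence, and it had 2.19 and 0 CPM at HS-11 and 46.2 and 70.2 CPM at R-1. NAP, a NAC factor that links abscisic acid to chlorophyll loss, was at 0 counts at HS-11 and at 37.2 and 43.9 CPM at R-1, at least 20.4-fold higher. SAG12, a cysteine protease expressed late in senescence, had no counts in any of the 4 libraries and was not tested, which allows at most the floor of 3 counts per library. SEN1 rose by 3.74 ± 0.25 (SE) in Ah2880 OE with a log2 fold change of -0.77 in WT. WRKY70, a negative regulator of senescence, was the lower member, with 11 and 6 counts at HS-11 and 1 and 1 counts at R-1; its log2 fold change of -2.56 ± 0.81 (SE) became 0.57 after thinning to equal depth.

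**Figure D4:**
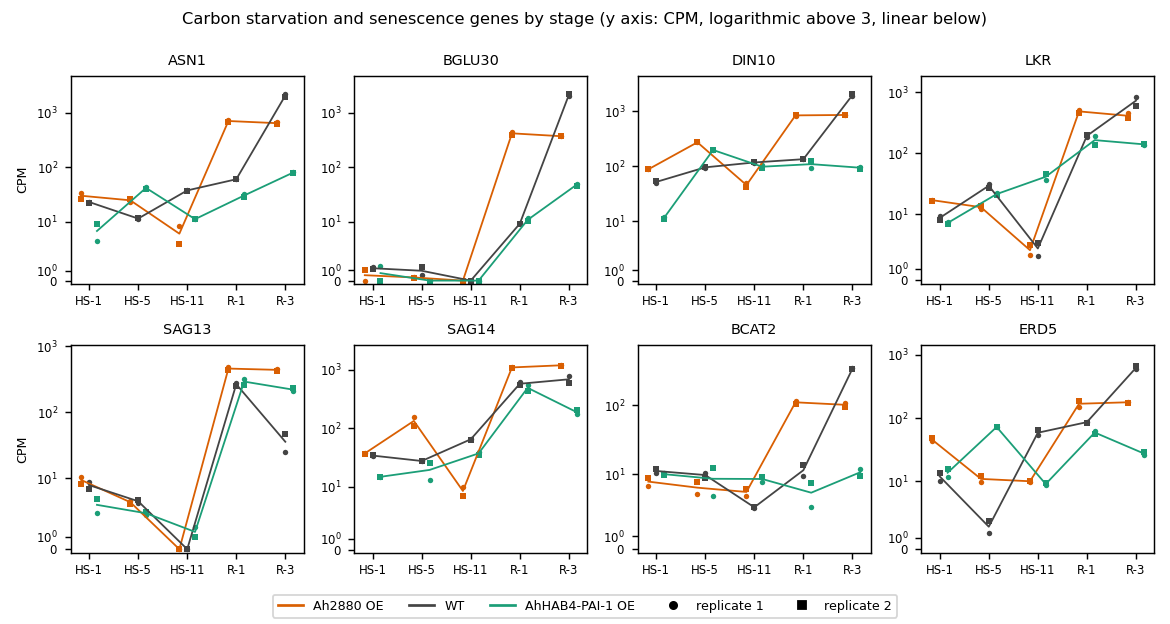
CPM (y axis, logarithmic above 3 and linear below) of 8 genes of carbon starvation and senescence at each stage of heat (HS-1, HS-5, HS-11) and recovery (R-1, R-3) in the 3 lines; circles and squares are replicates 1 and 2 and lines join their means. At R-1 ASN1 is at 742 and 667 CPM in Ah2880 OE and at 60.5 and 60.0 CPM in WT.

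Transcripts for photosynthesis were mostly lower. Of 45 nuclear genes of the photosystems and light harvesting complexes, 40 fell and 4 rose (median -1.6, with 29.1% and 22.5% of all genes), and all 17 genes of Rubisco and the Calvin cycle fell (median -1.5). With library totals the counts were 34 lower and 5 higher, and 14 lower. RBCS2B, a small subunit of Rubisco, had 2397 and 2362 CPM at HS-11 and 135 and 128 CPM at R-1, and a log2 fold change of -4.18 ± 0.17 (SE), more negative than in WT (difference in log2 fold change -1.81 ± 0.21 SE, adjusted p = 1.09e-09). Rubisco small subunit genes are near-identical copies, so reads may be split between them, and the same holds for the LHCB1 and LHCB2 genes. RBCS1A fell by 1.47 ± 0.15 (SE) on the log2 scale. HCEF1, a fructose bisphosphatase of the Calvin cycle, had 464 and 431 CPM at HS-11 and 84.5 and 92.2 CPM at R-1 and a log2 fold change of -2.33 ± 0.14 (SE) in Ah2880 OE, against -0.31 in WT. PETE2, the main plastocyanin, fell by 3.04 ± 0.14 (SE) on that scale. The members that rose were LHCA4, LHCB2.1, LHCB2.2 and LHCB2.3, and 2 members were called higher when either HS-11 replicate or the second R-1 replicate was left out. LHCB2.1, an antenna protein of photosystem II, had 333 and 323 CPM at HS-11 and 1179 and 1233 CPM at R-1 and rose by 1.88 ± 0.14 (SE), more than in WT by 1.5 ± 0.20 (SE, adjusted p = 2.9e-08).

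Chlorophyll synthesis moved in the same direction, with 13 of 16 genes lower and 1 higher, beside 29.1% and 22.5% of all genes. The change was more negative than in WT for 9 members, beside 12.5% of all genes. PCB2, the divinyl reductase of the pathway, had 213 and 214 CPM at HS-11 and 12.4 and 14.6 CPM at R-1, a log2 fold change of -3.96 ± 0.22 (SE) against -1.17 in WT. PORB, a light-dependent protochlorophyllide reductase, had a log2 fold change of -1.85 ± 0.13 (SE) in Ah2880 OE and of 0.43 in WT, a difference of -2.28 ± 0.17 (SE, adjusted p = 1.19e-15). CAO, which makes chlorophyll b, rose by 1.08 ± 0.16 (SE). Of 10 chlorophyll breakdown genes 4 rose and 3 fell, the latter a share near the 29.1% of all genes and the former beside 22.5%. PAO, the oxygenase that opens the chlorophyll ring, had 59.7 and 70.1 CPM at HS-11 and 279 and 256 CPM at R-1 and rose by 2.05 ± 0.15 (SE), and NYE1 (also SGR1), the magnesium dechelatase that starts breakdown, rose by 1.91 ± 0.24 (SE). CLH1, a chlorophyllase, had 83.3 and 84.1 CPM at HS-11 and 2.25 and 4.39 CPM at R-1, a log2 fold change of -4.54 ± 0.31 (SE) against 0.35 in WT.

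Starch genes mostly fell in Ah2880 OE: 13 of 18 were lower and 3 higher (median -1.38), beside 29.1% and 22.5% of all genes. In WT 5 were lower and 7 higher (median 0.13), beside 25.3% and 30.2% of all genes there. The change was more negative than in WT for 12 members and more positive for 2, beside 12.5% and 5.89% of all genes. PHS2, the cytosolic glucan phosphorylase, had 169 and 173 CPM at HS-11 and 58.6 and 51.9 CPM at R-1, with a difference from WT of -2.30 ± 0.22 (SE, adjusted p = 3e-12). BAM5, a beta-amylase expressed in phloem, had 58.6 and 56.8 CPM at HS-11 and 23.7 and 19.0 CPM at R-1 and a log2 fold change of -1.47 ± 0.24 (SE) in Ah2880 OE, where it rose by 3.11 in WT. BAM9, a beta-amylase without catalytic activity, rose by 1.18 ± 0.19 (SE) and differed from WT by 2.33 ± 0.24 (SE, adjusted p = 3.8e-11). In nitrate assimilation 11 of 19 rose and 4 fell (median 0.93), beside 22.5% and 29.1% of all genes. NRT1.8, which unloads nitrate from the xylem, was at 2 and 1 counts at HS-11 and at 273 and 421 counts at R-1, a ratio of R-1 to HS-11 of 319 (95% counting interval 109 to 1551). NIA2, the main nitrate reductase, had 492 and 413 CPM at HS-11 and 2077 and 2157 CPM at R-1, whereas NIR1, the nitrite reductase that follows it, had 742 and 651 CPM at HS-11 and 65.3 and 76.1 CPM at R-1 and GLN2, the chloroplast glutamine synthetase, 908 and 809.7 CPM at HS-11 and 223 and 184 CPM at R-1. The cytosolic glutamine synthetases GLN1;1, GLN1;2 and GLN1;3, which serve nitrogen export from leaves, rose by log2 fold changes of 1.32, 1.58 and 1.48.

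The machinery of protein synthesis and turnover fell. Of 201 cytosolic ribosomal protein genes tested 182 were lower and 1 higher (median -1.57). Of 12 ribosome biogenesis genes all 12 were lower (median -2.29), and of 50 proteasome genes 44 were lower (median -1.41). These counts stand beside 29.1% of all genes lower. With library totals the numbers lower were 144, 11 and 32. In WT 157, 6 and 40 fell and 4, 2 and 2 rose, beside 25.3% and 30.2% of all genes. In AhHAB4-PAI-1 OE 59 ribosomal protein genes rose and 15 fell, 27 proteasome genes rose and 1 fell, and 9 ribosome biogenesis genes fell. Of all genes 24.9% rose there and 24% fell, so the 59 were near the share of all genes. The change was more negative in Ah2880 OE than in AhHAB4-PAI-1 OE for 180 of the 201 ribosomal protein genes and 46 of the 50 proteasome genes, beside 23.3% of all genes.

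FIB2, a fibrillarin that methylates ribosomal RNA in the nucleolus, had 51.5 and 46.7 CPM at HS-11 and 6.76 and 4.39 CPM at R-1 and a log2 fold change of -3.20 ± 0.31 (SE), against -0.45 in WT. NAP57, the pseudouridine synthase of the same machinery, had a log2 fold change of -1.80 ± 0.18 (SE) in Ah2880 OE and of 1.6 in WT, a difference of -3.40 ± 0.26 (SE, adjusted p = 9.94e-16). RPT3, an ATPase of the proteasome's regulatory particle, had 668 and 663 CPM at HS-11 and 139.7 and 125 CPM at R-1. AT5G60670, a ribosomal protein L11 family gene, had 89.3 and 68.5 CPM at HS-11 and 15.8 and 7.32 CPM at R-1 and a log2 fold change of -2.89 ± 0.29 (SE), while in WT it was 0.35. The ribosomal protein gene that rose was AT5G39850, with 15.3 and 15.6 CPM at HS-11 and 23.7 and 32.9 CPM at R-1. Of 19 autophagy genes, the other route of protein turnover, 3 rose, 5 fell and 11 did not pass the test (median 0.05), shares near or below the 22.5% and 29.1% of all genes. ATG8F and ATG7, a membrane tag of the autophagosome and the enzyme that activates it, rose by 1.46 ± 0.23 (SE) and 1.66 ± 0.34 (SE). ATG18A, which acts at the forming autophagosome, fell by 2.56 ± 0.16 (SE) on the log2 scale. With library totals 9 autophagy genes rose and 2 fell.

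Promoters of ribosomal genes often hold the telo-box AAACCCTA and the site II element, searched here as TGGGCC or TGGGCT on both strands. The 60 bases before the start of AT5G60670 hold 2 telo-boxes, in capitals, at chr5:24381600-24381659, minus strand of TAIR10.1.
AT5G60670: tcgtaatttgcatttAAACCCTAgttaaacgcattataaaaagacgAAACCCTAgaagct
The telo-box was in 95 of 201 ribosomal protein promoters (47.3%) and 7 of 12 ribosome biogenesis promoters (58.3%), beside 5.61% of all nuclear genes tested. The site II element was in 157 of 201 (78.1%), 9 of 12 (75%) and 28 of 50 proteasome promoters (56%), beside 25.8%. It was also in 13 of 16 small heat shock protein promoters (81.2%). Over all genes the telo-box was in 8.34% of the promoters of genes called lower and 2.83% of those called higher, and the site II element in 35.9% and 15.1%.

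**Figure D5:**
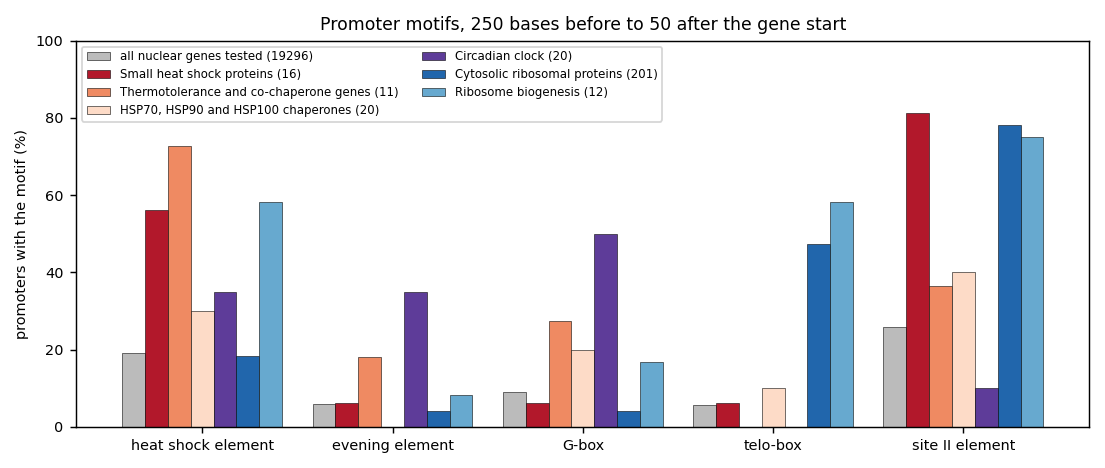
Share of promoters with each of 5 motifs (y axis, percent of promoters; x axis, motif) in the window from 250 bases before to 50 after the gene start, for all nuclear genes tested and 6 gene lists (number of promoters in parentheses). The heat shock element is in 56.2% of small heat shock protein promoters and 19% of all, and the telo-box in 47.3% of ribosomal protein promoters and 5.61% of all.

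Genes of abscisic acid, the hormone of water deficit, split into groups. Of 29 tested, 15 rose, 7 fell and 7 did not pass the test; in WT 19 rose and 4 fell, and in AhHAB4-PAI-1 OE 7 rose and 17 fell. The shares of all genes higher and lower were 22.5% and 29.1% in Ah2880 OE, 30.2% and 25.3% in WT and 24.9% and 24% in AhHAB4-PAI-1 OE, so the 7 lower members in Ah2880 OE were near the share of all genes. RAB18, a dehydrin induced by the hormone, had 8.22 and 6.23 CPM at HS-11 and 654 and 650.4 CPM at R-1, and RD29B rose with it by 5.13 ± 0.24 (SE). The PP2C phosphatases that switch the signal off rose, for example HAI1 by 3.12 ± 0.22 (SE), less than in WT (difference in log2 fold change -3.32 ± 0.56 SE, adjusted p = 4.84e-06). CYP707A1, which degrades the hormone, had 2.19 and 1.56 CPM at HS-11 and 114 and 116 CPM at R-1, a rise of 5.87 ± 0.30 (SE). NCED3, the rate-limiting step of its synthesis, had 17.0 and 21.8 CPM at HS-11 and 36.0 and 26.3 CPM at R-1 and was not called, while in WT its log2 fold change was 3.51, a difference of -2.84 ± 0.45 (SE, adjusted p = 1.61e-06). The members that fell were RD29A, COR47, ERD10, COR15A, COR15B, KIN1 and KIN2, which are also known as cold-regulated genes. RD29A had 1002 and 869.7 CPM at HS-11 and 106 and 92.9 CPM at R-1, and COR15A had a log2 fold change of -1.36 ± 0.16 (SE) in Ah2880 OE and of 1.23 in WT.

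Jasmonate genes separated Ah2880 OE from both other lines. Of 11 tested, 6 fell, none rose and 5 did not pass the test (median -1.26), beside 29.1% of all genes lower. In WT 8 rose and 3 fell, beside 30.2% and 25.3% of all genes. In AhHAB4-PAI-1 OE 10 rose, beside 24.9% of all genes. The change was more negative than in WT for 9 of the 11, beside 12.5% of all genes. It was more negative than in AhHAB4-PAI-1 OE for 10, beside 23.3%. LOX2, the chloroplast lipoxygenase that starts jasmonate synthesis, had 1318 and 1273 CPM at HS-11 and 235 and 239 CPM at R-1 in Ah2880 OE and 462 and 537 CPM and 698 and 723 CPM at the same stages in WT. VSP2, a vegetative storage protein induced by jasmonate, had 447 and 448 CPM at HS-11 and 133 and 119 CPM at R-1. In WT it went from 171 and 218 CPM to 976 and 909.8 CPM, and the difference in change was -4.10 ± 0.23 (SE, adjusted p = 9.25e-21). AOC2, an allene oxide cyclase of the same pathway, had 357 and 395 CPM at HS-11 and 12.4 and 11.7 CPM at R-1 and fell by 4.96 ± 0.21 (SE) on the log2 scale. With library totals 5 members fell and 2 rose. Of 8 salicylic acid and defence genes 3 rose and 1 fell (median -0.14), beside 22.5% and 29.1% of all genes. The number called depended on single replicates. Among the genes that rose was PR1, which was at 0 and 1 counts at HS-11 and 4 and 9 counts at R-1.

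Secondary metabolism was mixed. In flavonoid synthesis 6 of 11 genes rose and 2 fell (median 1.80), beside 22.5% and 29.1% of all genes. PAL1, which opens phenylpropanoid synthesis, had 31.8 and 29.6 CPM at HS-11 and 1031 and 1059 CPM at R-1 and rose by 5.08 ± 0.15 (SE), more than in WT by 1.55 ± 0.28 (SE, adjusted p = 1.96e-05). CHS, the first enzyme specific to flavonoids, had a log2 fold change of -1.14 ± 0.15 (SE) in Ah2880 OE and of 1.05 in WT, a difference of -2.19 ± 0.22 (SE, adjusted p = 1.77e-11). Indolic glucosinolate genes rose in 5 of 9 cases and none fell, beside 22.5% and 29.1% of all genes. In WT 8 rose and none fell, beside 30.2% and 25.3% of all genes. In AhHAB4-PAI-1 OE 6 rose and 1 fell, beside 24.9% and 24% of all genes. The change was more negative than in WT for 4 members and more positive for none, beside 12.5% and 5.89% of all genes. CYP79B2, the entry step from tryptophan, had 4.93 and 7.01 CPM at HS-11 and 38.3 and 51.2 CPM at R-1. Aliphatic glucosinolate genes did not rise: 3 of 15 fell and 12 did not pass the test, beside 29.1% of all genes lower. In WT 9 rose and 4 fell, beside 30.2% and 25.3% of all genes. In AhHAB4-PAI-1 OE 14 rose, beside 24.9% of all genes. The change was more negative than in WT for 8 members, beside 12.5% of all genes. MAM1, which lengthens the methionine chain, had 131 and 119.9 CPM at HS-11 and 19.1 and 16.1 CPM at R-1 and a log2 fold change of -2.86 ± 0.19 (SE), against -1.13 in WT and 2.1 in AhHAB4-PAI-1 OE. In cuticular wax 7 of 11 genes rose and none fell (median 1.25), beside 22.5% and 29.1% of all genes. In WT 10 rose and none fell (median 2.30), beside 30.2% and 25.3% of all genes. In AhHAB4-PAI-1 OE 2 rose and 4 fell, beside 24.9% and 24% of all genes. CER1, which makes wax alkanes, rose by 1.14 ± 0.16 (SE), less than in WT (difference in log2 fold change -1.47 ± 0.23 SE, adjusted p = 1.68e-06).

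Among genes for peroxide and superoxide removal 10 of 16 fell and 2 rose (median -1.08), beside 29.1% and 22.5% of all genes. Under library totals 8 fell and 5 rose, and 4 rose in the fit of the 4 libraries alone and after thinning. FSD1, an iron superoxide dismutase, had 183 and 164 CPM at HS-11 and 18.0 and 19.0 CPM at R-1 and a log2 fold change of -3.22 ± 0.25 (SE), against -0.51 in WT. CAT1 and CAT3, catalases, rose by 1.44 ± 0.15 (SE) and 0.93 ± 0.13 (SE). The precursor of MIR398b, a microRNA known to target the copper superoxide dismutases CSD1 and CSD2, went from 196 and 201 counts to 0 and 1 counts, a ratio of HS-11 to R-1 of 288 (95% counting interval 51.4 to 11399). CSD1 had 17.0 and 28.8 CPM at HS-11 and 43.9 and 33.7 CPM at R-1 and CSD2 107 and 116 CPM at HS-11 and 118 and 95.8 CPM at R-1, and neither passed the test. Of 11 low oxygen and fermentation genes 3 rose and 3 fell, close to the 22.5% and 29.1% of all genes. ADH1, an alcohol dehydrogenase, had 21.9 and 15.6 CPM at HS-11 and 316 and 264 CPM at R-1 and SUS1, a sucrose synthase, 29.0 and 26.5 CPM at HS-11 and 332 and 308 CPM at R-1, while PDC1, a pyruvate decarboxylase, had 101 and 92.7 CPM at HS-11 and 2.25 and 3.66 CPM at R-1.

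Of 13 plasma membrane aquaporins 4 rose and 6 fell, beside 22.5% and 29.1% of all genes. With library totals 5 rose and 2 fell, after thinning 3 fell, and without the first R-1 replicate 2 rose. PIP1;1 had 92.6 and 85.6 CPM at HS-11 and 479 and 433 CPM at R-1 and PIP2;3 932 and 807 CPM at HS-11 and 298 and 285 CPM at R-1. Of 20 expansins and xyloglucan endotransglucosylases, which loosen cell walls, 9 rose and 7 fell, beside 22.5% and 29.1% of all genes. The 7 that fell were near the share of all genes. With library totals 9 rose and 2 fell. The 7 became 4 without the first HS-11 replicate, 3 without the first R-1 replicate and after thinning, and 2 without the second R-1 replicate, where 10 were called in all. XTH24 had 37.3 and 45.2 CPM at HS-11 and 596 and 565 CPM at R-1 and rose by 3.83 ± 0.15 (SE), more than in WT by 2.98 ± 0.21 (SE, adjusted p = 7.69e-17). XTH9 had 35.1 and 35.8 CPM at HS-11 and 1.13 and 3.66 CPM at R-1 and a log2 fold change of -3.71 ± 0.40 (SE), against 0.80 in WT. Cell division genes were low in all 4 libraries: 1 of 20 rose and 7 fell, beside 22.5% and 29.1% of all genes and against 4 and 2 in WT, and without the second R-1 replicate 3 were called. PCNA1, the sliding clamp of DNA replication, had 18.1 and 24.9 CPM at HS-11 and 0 counts in both R-1 libraries, at least 7.71-fold lower.

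Among called genes averaging 50 or more counts in their higher stage, the highest fitted log2 fold changes belonged to SAG13, BGLU30, PCK2, CHX17, PMT6, CYP94B3, SBT3.3, AT2G42560, M17 and AT3G14280. All 10 were at 0 counts in both HS-11 libraries, as were 385 genes called higher in all, so their rank depends on the prior count and only bounds can be given, from 39.9-fold for AT3G14280 to 231-fold for SAG13. Genes with counts at both stages also rose past most of these bounds, among them NIT2 and LKR, by 8.60 and 7.52 on the log2 scale. PCK2, a phosphoenolpyruvate carboxykinase that feeds carbon from organic acids into sugar synthesis, was at 132 and 103 CPM at R-1, at least 59.0-fold higher. CYP94B3, which inactivates jasmonoyl-isoleucine, was at 85.6 and 90.0 CPM, at least 44.1-fold higher, and CHX17, a cation/proton exchanger, at 101 and 105 CPM. M17 and AT2G42560, late embryogenesis abundant proteins typical of seeds, were at 76.6 and 85.6 CPM and 64.2 and 100.2 CPM. PMT6, annotated as a major facilitator, was at 99.1 and 95.1 CPM, and SBT3.3, a subtilase, at 80.0 and 92.9 CPM.

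Under the same limit the lowest fitted log2 fold changes belonged to AT3G22100, ACD6, AT1G31690, AT1G52270, MSRB6, PCC1, MIR398b, AT1G59860, PnsL3 and ECS1. The rank of the first 5, at 0 counts in both R-1 libraries, depends on the prior count, and for ACD6, AT1G31690, AT1G52270 and MSRB6 the data give a fall of at least 16.5-, 12.0-, 11.7- and 11.8-fold, less than the measured fall of HSFA2 (-6.96 on the log2 scale). AT3G22100, a basic helix-loop-helix factor, had 184 and 187 CPM at HS-11 and 0 counts in both R-1 libraries, at least 66.5-fold lower, and ACD6, an ankyrin protein of salicylic acid defence, had 51.0 and 41.3 CPM at HS-11. In all, 259 genes called lower were at 0 counts in both R-1 libraries. ECS1 had 745 and 659 CPM at HS-11 and 3.38 and 5.12 CPM at R-1, a log2 fold change of -7.29 ± 0.27 (SE). PCC1, a small protein that responds to pathogens and the clock, went from 228 and 195 counts to 1 and 0, a ratio of HS-11 to R-1 of 307 (95% counting interval 54.8 to 12143). PnsL3, a subunit of the chloroplast NDH complex, had 96.4 and 94.2 CPM at HS-11 and 0 and 1 counts at R-1.

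The genes with most counts also changed. At R-1 they were both 18S ribosomal RNA entries, EXT4, UBQ10 and NIT2, and at HS-11 HSP70, HSP70-1, the same rRNA entries and Hsp70b. EXT4, an extensin of the cell wall, had 100.3 and 84.1 CPM at HS-11 and 6399.6 and 6446 CPM at R-1. It took 0.828% and 0.843% of the R-1 counts, rose by 6.11 ± 0.23 (SE) and differed from WT, where the log2 fold change was -0.23, by 6.34 ± 0.30 (SE, adjusted p = 2.97e-23). NIT2, a nitrilase, had 9.86 and 5.45 CPM at HS-11 and 3167 and 3093 CPM at R-1 and rose by 8.60 ± 0.20 (SE), with 6.63 in WT. UBQ10, a polyubiquitin gene, had 3591 and 3887 CPM at HS-11 and 4226 and 4139 CPM at R-1 and was not called.

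Under the same limit the genes whose change differed most from WT included BGAL4, AT1G30720 and IOS1 in the positive direction. BGAL4, a beta-galactosidase, had 1.64 and 3.11 CPM at HS-11 and 329 and 282 CPM at R-1, and its change exceeded that in WT by 7.43 ± 0.73 (SE, adjusted p = 8.72e-12). AT1G30720, a berberine bridge enzyme-like oxidase, had 1.64 and 1.56 CPM at HS-11 and 217 and 219 CPM at R-1 and a log2 fold change of -2.83 in WT. CSLA01, a cellulose synthase-like enzyme, and MSRB6, a methionine sulfoxide reductase, were the most negative: CSLA01 had 14.8 and 16.4 CPM at HS-11 and MSRB6 32.9 and 32.7 CPM, and both were at 0 counts in the R-1 libraries. In WT CSLA01 rose by 3.94 and MSRB6 had a log2 fold change of -0.37.

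Markers of single leaf cell types and of roots were examined because the pools held whole leaves. Of 3 guard cell markers 1 fell and none rose, of 3 phloem companion cell markers 1 rose and 1 fell, and of 3 epidermis markers 1 fell. Of all genes 22.5% were higher and 29.1% lower. The guard cell markers together had only 8.77 and 14.8 CPM at HS-11 and 9.01 and 6.58 CPM at R-1. These values are close to the floor of 3 counts per library, so little can be read from that call. SUC2, the sucrose transporter that defines companion cells, had 52.1 and 58.4 CPM at HS-11 and 57.4 and 57.1 CPM at R-1. ATML1, an epidermal factor, had 24.7 and 27.3 CPM at HS-11 and 29.3 and 29.3 CPM at R-1. Other members moved more: log2 fold changes ranged from -1.26 to 1.61 for companion cell markers and from -1.76 to 0.18 for epidermis markers. The companion cell markers together had 163 and 171 CPM at HS-11 and 371 and 315 CPM at R-1. Both root markers tested, PYK10 and SCR, rose: PYK10 had 51.5 and 63.8 CPM at HS-11 and 158 and 145 CPM at R-1 and SCR 12.1 and 12.5 CPM at HS-11 and 29.3 and 27.1 CPM at R-1, while COBL9, which defines root hair cells, had no counts in the 4 libraries. Their part in the changes above was not tested.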

How the data were processed

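Leaf mRNA was sequenced in 30 libraries of 3 lines at 5 stages, each a pool of 10 plants. The authors aligned reads to TAIR10 with Bowtie2, sorted them with Samtools, removed duplicates with Picard, and deposited raw counts per gene made with Subread. The annotation release and the strand setting are not given in the sources used here, so overlapping and antisense genes cannot be told apart. Removing duplicates can lower the counts of the most abundant transcripts. From the deposited counts, all 30 libraries were fitted together in edgeR 4.0.16 (limma 3.58.1, R 4.3.3; tables in Python 3.11.15) with 1 coefficient for each of 15 combinations of line and stage, filterByExpr, TMM factors and the quasi-likelihood F test. Genes with a Benjamini-Hochberg adjusted p under 0.01 over all 19761 genes were called. Fold changes were fitted with edgeR's default prior count. A prior count of 2 was used only for the log2 CPM compared between replicates. CPM used the TMM-scaled totals, and 3 counts per library (1.64 to 3.38 CPM in the 4 libraries compared) served as the floor for genes at 0 counts. Counting intervals are exact binomial (95%) and cover counting error only. Replicates are pools of different plants, and p-values measure the spread between such pools. In all, 3911 suffixed entries repeat the counts of another entry in 1123 of the 1124 that hold counts, and 11 ribosomal RNA entries took 1.38% and 2.36% of the counts at HS-11 and 2.95% and 2.70% at R-1. Reads of near-identical genes (heat shock protein, Rubisco and LHCB families) may be split between copies.

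The named genes were the 10 with the largest change in each direction among called genes whose groups did not overlap and whose higher group averaged 50 or more counts, the 5 with most counts per stage, the 5 with the largest difference in change in each direction under the same limits, and from each list up to 4 members with the largest change plus further members needed to describe it. The members and lists were chosen with earlier results of these data known. Promoters were read from the RefSeq assembly TAIR10.1 by gene start (770 of 770 list members and 19296 tested genes matched), since the count table holds no coordinates. The fits were tested on simulated counts. Alternatives were other scaling factors, no filter, DESeq2 1.42.0, fits of the libraries compared alone or without the WT R-3 libraries, a replicate block, binomial thinning to 686550 counts and leaving out each replicate. One promoter sequence is not reported here.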

Additional observations from a re-analysis of the deposited data

Results flagged for a closer look

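The change from HS-11 to R-1 differed between lines by a direct test, an interaction contrast in edgeR's quasi-likelihood fit at an adjusted p under 0.01. Against WT this held for 3627 genes, 289 of them among the listed members, and against AhHAB4-PAI-1 OE for 7911 genes and 561 members. The values that follow are differences in log2 fold change among genes averaging 50 or more counts in their highest group, and those of genes with no counts in a stage depend on the prior count and bound nothing.

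Relative to WT, the change in Ah2880 OE was most positive for PCK2 (17.01), the berberine bridge enzyme-like AT1G30720 (9.87), BGAL4 (7.43), the receptor kinase IOS1 (7.29) and PMT6 (7.06). It was most negative for CSLA01 (-12.29), MSRB6 (-9.06), the subtilisin-like AT2G39850 (-8.18), the DNA glycosylase family gene AT5G44680 (-8.13) and the glycosyltransferase AT4G09500 (-7.94). Of these, AT4G09500 was not called in Ah2880 OE itself.

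Relative to AhHAB4-PAI-1 OE, the change was most positive for NAP (12.44), AT1G35735 (10.25, listed a second time as AT1G35735.1 with equal counts), AT1G62420 of the DUF506 family (10.13) and the receptor-like protein RLP19 (9.45). It was most negative for the Kunitz inhibitor AT1G73325 (-12.49), CSLA01 (-11.37), the GDSL lipase AT1G54010 (-11.33), MSRB6 (-11.32) and ACD6 (-10.75). AT1G35735 did not change in Ah2880 OE past the threshold, with a log2 fold change of -0.36 beside -10.61 in AhHAB4-PAI-1 OE. Groups of 2 libraries are too small to look for single outlying samples.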

How the results depend on the processing

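In all alternatives no gene called in Ah2880 OE was called in the opposite direction, and the share of the 10193 calls that kept its direction and call was 99% with relative log expression factors, 92.5% with DESeq2, 78.6% with library totals, 83% with the 4 libraries alone (1000 calls were not tested there) and 73.1% after thinning. Leaving out single replicates gave 7868 to 9140 calls, 2370 to 3168 differences from WT (2370 without the second R-1 replicate), 6111 to 7555 from AhHAB4-PAI-1 OE and 539 to 589 changed list members. A threshold of 0.05 gave 12153 calls, and a test against a 1.5-fold change 7825. After thinning to equal depth, 1820 differences from WT and 4899 from AhHAB4-PAI-1 OE were called. The log2 fold change of WRKY70 turned to 0.57 after thinning and that of FDH, an epidermal gene at -0.05, to 0.54 with library totals, and the cause was not tested. Samples with the same replicate number did not deviate together (r = 0.0029 across genes). That value covers genes with few counts, where counting error can hide a pairing, so pairing by number was not excluded. With the replicate block 10147 genes were called (4414 higher, 5733 lower). With the block and the 4 libraries alone 8552 were called, a fit chosen after seeing the data. Of the log2 fold changes of named genes under alternatives other than leaving out a replicate, 2261 kept direction and call, 14 passed the threshold newly, 51 lost it and 2 reversed. Low depth at R-1 limits what can be said of genes near the floor.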

Other observations

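Transcripts encoded in the organelle genomes, which are in no list above, were lower at R-1 in Ah2880 OE. Of 127 mitochondrial genes tested, 101 fell and none rose, with a median log2 fold change of -2.86, and 118 fell in WT and 120 in AhHAB4-PAI-1 OE. Of 83 chloroplast genes tested, 32 fell and 1 rose (median -1.94), with 48 and 49 falling in the other lines. Of all genes tested 29.1% fell in Ah2880 OE, 25.3% in WT and 24% in AhHAB4-PAI-1 OE. Organelle transcripts are largely not polyadenylated, and whether the selection of mRNA varied between libraries was not tested.

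Of the carbon starvation genes and PCK2, 3 are given at R-3 in WT, in libraries of 46825 and 50677 counts, chosen after their values were seen; the list as a whole was not tested there. ASN1 was at 2180 and 1948 CPM there, beside 742 and 667 CPM in Ah2880 OE at R-1 and 671 and 613 CPM in Ah2880 OE at R-3. DIN10 was at 1915 and 2040 CPM in WT at R-3, and PCK2 at 706 and 934 CPM, while PCK2 was at 0 counts in both WT libraries at R-1.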
